A study of Mus musculus with 14 samples.

Results

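The 40 genes described here are Myc and a set of nucleolar genes needed to build ribosomes. The nucleolar genes comprise 2 subunits of RNA polymerase I, 3 proteins of the box C/D and 3 of the box H/ACA small nucleolar ribonucleoproteins (snoRNPs), 14 assembly factors of the small ribosomal subunit, 13 of the large subunit, and 4 abundant nucleolar chaperones and regulators. They were chosen by gene symbol with earlier results of these data known, so the values set against all genes below are descriptive. Each gene was read from the probe set annotated with its symbol alone that had the highest mean over 14 arrays. All 40 of the 40 listed genes were measured, among 18193 genes with such a probe set, and 14 of them had a single probe set. None lay below the 40 percentile of mean level over all probe sets (6.65 on the log2 scale), the limit under which a probe set is called dim here.

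Ribosomes are assembled in the nucleolus, where RNA polymerase I copies the ribosomal DNA into a long precursor RNA. Guide snoRNPs modify that precursor, and large sets of assembly factors fold, cut and export the small and the large subunit. The transcription factor Myc binds DNA at E-boxes, drives many of these genes in growing cells, and is itself an early target of the estrogen receptor in breast and uterine cells.

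The tissue was whole mammary gland of female C57BL/6 mice, aged 11 to 12 weeks on arrival, and RNA was taken 3 h after a single treatment. In every group, the controls included, the ovaries had been removed 7 days before treatment. Control mice received vehicle, a second group 17-beta-estradiol (E2), and 4 more groups a blocker of estrogen receptors without E2: acolbifene (EM-652.HCl), raloxifene, tamoxifen citrate, or fulvestrant, the steroidal one of the 4. The remaining 4 groups received E2 together with acolbifene, raloxifene, tamoxifen or fulvestrant. Replicate arrays, 2 for each group, existed for vehicle, E2, acolbifene and E2+acolbifene, while each of the other 6 groups had a single array. The glands of the 8 mice of a group were pooled, and the labels do not say whether paired arrays came from separate pools, so the p-values cover array-to-array spread alone, which could be technical. In a whole gland, fewer cells of a type and less RNA per cell cannot be told apart.

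Markers of the labelled tissue were present: 17 of 18 luminal epithelial markers were measured, the dimmest at 7.29 on any array, and 15 of 18 adipocyte markers, the dimmest at 8.81. All 14 basal markers were measured, the dimmest below the dim limit at 5.34. The summed linear level of 18 skeletal muscle markers ran from 7084 to 29760 over the arrays. E2 array 1 had a median muscle difference from vehicle of -0.61 log2 and E2 array 2 of 0.46, so the E2 pair differed in muscle content. Raw-file names carried the code R136 on E2 array 1 and on the 6 unreplicated arrays and R137 elsewhere, and the meaning of the code is not stated in the labels. The mean of the hybridization spikes was 9.57 to 9.81 for E2 and for the unreplicated groups against 10.0 to 10.18 on the rest, and for Actb the 3' probe set exceeded the 5' one by 0.41 and 0.43 after E2 against 0.28 and 0.24 in vehicle. Both differences separate E2 from vehicle and cannot be told apart from the treatment.

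Promoter sequence was held for 34 of the 40 genes in the RefSeq table of assembly GRCm38.p6, as windows of 300 bases. Each window lies mostly before a start site, which is not always the annotated start of the gene. The E-box CACGTG, which reads the same on both strands, was found in the window of 9 of these 34 genes (Utp4, Utp20, Wdr43, Imp4, Ltv1, Tsr1, Pes1, Nop2 and Mybbp1a), against 8.09% of the 27025 genes with a promoter. A palindromic estrogen response element, GGTCANNNTGACC, was found in 0 of the 34, against 0.074% of genes. Shown first are the windows of 2 genes whose levels rose with E2 and fell with added acolbifene on the probe set used, Ddx21 on chr10:62602249-62602548 (minus strand) and Wdr75 on chr1:45794916-45795215 (plus strand). Then follow 2 genes that hold the E-box and passed none of the main comparisons below, Wdr43 on chr17:71615965-71616264 (plus strand) and Mybbp1a on chr11:72441077-72441376 (plus strand). These windows are picked examples. Mybbp1a, without passing, also read higher on both E2 arrays (9.75 and 9.64) than on the vehicle arrays (9.38 and 9.43). Capitals mark the E-box.
Ddx21: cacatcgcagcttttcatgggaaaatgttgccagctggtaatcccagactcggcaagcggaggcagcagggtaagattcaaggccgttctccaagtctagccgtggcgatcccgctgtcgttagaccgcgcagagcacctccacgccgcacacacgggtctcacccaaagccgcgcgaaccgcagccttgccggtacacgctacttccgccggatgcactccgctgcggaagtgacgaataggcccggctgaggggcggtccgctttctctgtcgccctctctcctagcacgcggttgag
Wdr75: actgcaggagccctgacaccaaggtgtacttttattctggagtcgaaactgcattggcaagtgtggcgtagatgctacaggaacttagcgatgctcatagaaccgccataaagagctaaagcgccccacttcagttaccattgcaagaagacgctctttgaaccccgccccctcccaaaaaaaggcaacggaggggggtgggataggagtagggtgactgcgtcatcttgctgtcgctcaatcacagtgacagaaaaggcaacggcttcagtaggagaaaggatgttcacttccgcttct
Wdr43: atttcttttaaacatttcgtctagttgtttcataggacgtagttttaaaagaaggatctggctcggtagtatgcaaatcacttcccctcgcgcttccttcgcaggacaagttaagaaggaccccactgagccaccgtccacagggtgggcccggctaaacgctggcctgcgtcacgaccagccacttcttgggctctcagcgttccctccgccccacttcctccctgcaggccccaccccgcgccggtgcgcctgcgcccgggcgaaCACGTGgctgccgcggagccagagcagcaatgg
Mybbp1a: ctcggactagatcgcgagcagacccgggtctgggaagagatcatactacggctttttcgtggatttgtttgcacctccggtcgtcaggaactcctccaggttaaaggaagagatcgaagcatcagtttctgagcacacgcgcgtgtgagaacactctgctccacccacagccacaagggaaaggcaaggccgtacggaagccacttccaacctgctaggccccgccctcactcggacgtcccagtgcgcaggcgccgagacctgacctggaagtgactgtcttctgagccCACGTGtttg
The first base of the E-box lies 17 bases after the start site of the window in Wdr43 and 40 bases after it in Mybbp1a. In Wdr43 the annotated gene begins before that site, at position 71616178. The windows of the members were GC-rich, with a median of 59.5% G and C and 21.5 CpG dinucleotides against 52.7% and 7 over all genes. Matches and missing matches describe the letters of these windows alone.

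The levels of the 40 genes spanned a wide range, given here as log2 expression levels. The nucleolar proteins Ncl (11.55 to 12.05 over the 14 arrays) and Npm1 (11.15 to 11.83) gave the brightest probe sets, and Rrp12 (6.89 to 7.38) the dimmest. Myc itself lay between 7.91 and 8.59, at the 66.05 percentile of mean level over all probe sets. Probe sets differ in brightness for reasons of sequence, so these levels do not rank the genes against each other. Within the replicate pairs the median absolute difference of the members was 0.10 log2 in vehicle, 0.066 in E2, 0.097 in acolbifene and 0.079 in E2+acolbifene, with the largest gap 0.43 for Ftsj3 in acolbifene.

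**Figure D1:**
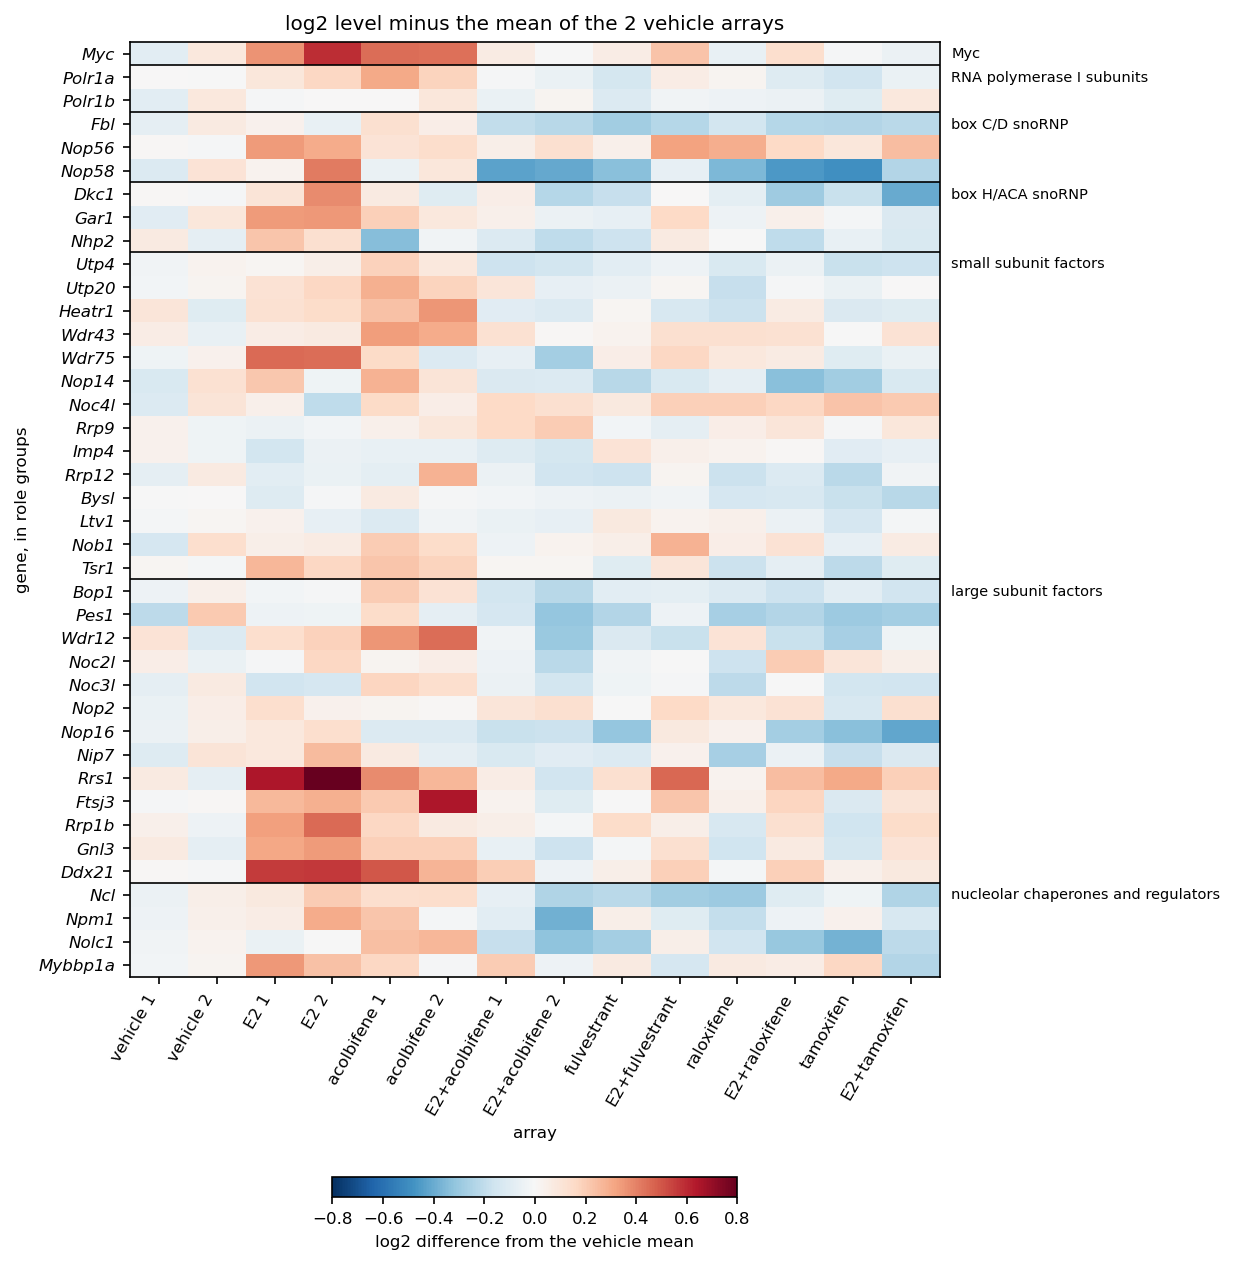
Each row is 1 of the 40 genes, ordered by role, and each column 1 of the 14 arrays; colour gives the log2 level minus the mean of the 2 vehicle arrays, red above and blue below, with the scale ending at 0.8 to either side. Rrs1, Ddx21 and Myc stand out in red on both E2 arrays and less so or not at all on the E2+acolbifene arrays, and most rows stay pale across the 6 unreplicated arrays.

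E2 was set against vehicle to ask which of these genes estradiol moved within 3 h. Levels of 5 of the 40 genes rose and 0 fell at a limma adjusted p under 0.05 over all 45037 probe sets, a result that is termed called below. Over all 18193 genes 2.35% were called higher and 1.6% lower. The 5 genes were Myc, the small subunit factor Wdr75, and the large subunit factors Rrs1, Ddx21 and Rrp1b. The median log2 difference of the 40 genes was 0.13, against -0.02 over all genes, and 28 of the 40 differences were above 0.

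Rrs1, needed in yeast to bring the 5S ribonucleoprotein into the large subunit, read 9.73 and 9.58 on the vehicle arrays and 10.30 and 10.46 on the E2 arrays. Both E2 arrays lay above both vehicle arrays and above each of the other 10 arrays. The rise was 1.66-fold (log2 difference 0.73 ± 0.11, SE, 2 arrays per group, limma adjusted p = 0.00410). A second Rrs1 probe set rose by 0.54 (limma adjusted p = 0.0152), which bears on the measurement because some probes of the first, of the _x_at type, can match other transcripts.

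Ddx21, an RNA helicase of ribosomal RNA transcription and processing, read 9.14 and 9.13 in vehicle and 9.69 and 9.70 after E2. The replicates of each group lay almost on top of each other and the groups were far apart. The rise was 1.48-fold (0.56 ± 0.11, limma adjusted p = 0.0167), although a second probe set of the gene gave 0.08 (limma adjusted p = 0.717).

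Myc read 7.91 and 8.08 in vehicle and 8.36 and 8.59 after E2. The groups did not overlap, and the gap between them exceeded the distance between the arrays of either pair. Myc rose 1.39-fold (0.48 ± 0.10, limma adjusted p = 0.0274).

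Wdr75, a subunit of the complex that couples transcription of the precursor to its first processing, read 8.49 and 8.56 in vehicle and 8.97 on both E2 arrays. Rrp1b, a nucleolar partner of the phosphatase PP1, read 8.44 and 8.36 in vehicle and 8.73 and 8.85 after E2. Neither gene's groups overlapped, and Wdr75 rose 1.37-fold (0.45 ± 0.11, limma adjusted p = 0.0447) and Rrp1b 1.31-fold (0.39 ± 0.09, limma adjusted p = 0.0383). Other probe sets of these 2 genes did not pass and gave -0.07 for Wdr75, at a dim level, and 0.12 and -0.21 for Rrp1b.

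**Figure D2:**
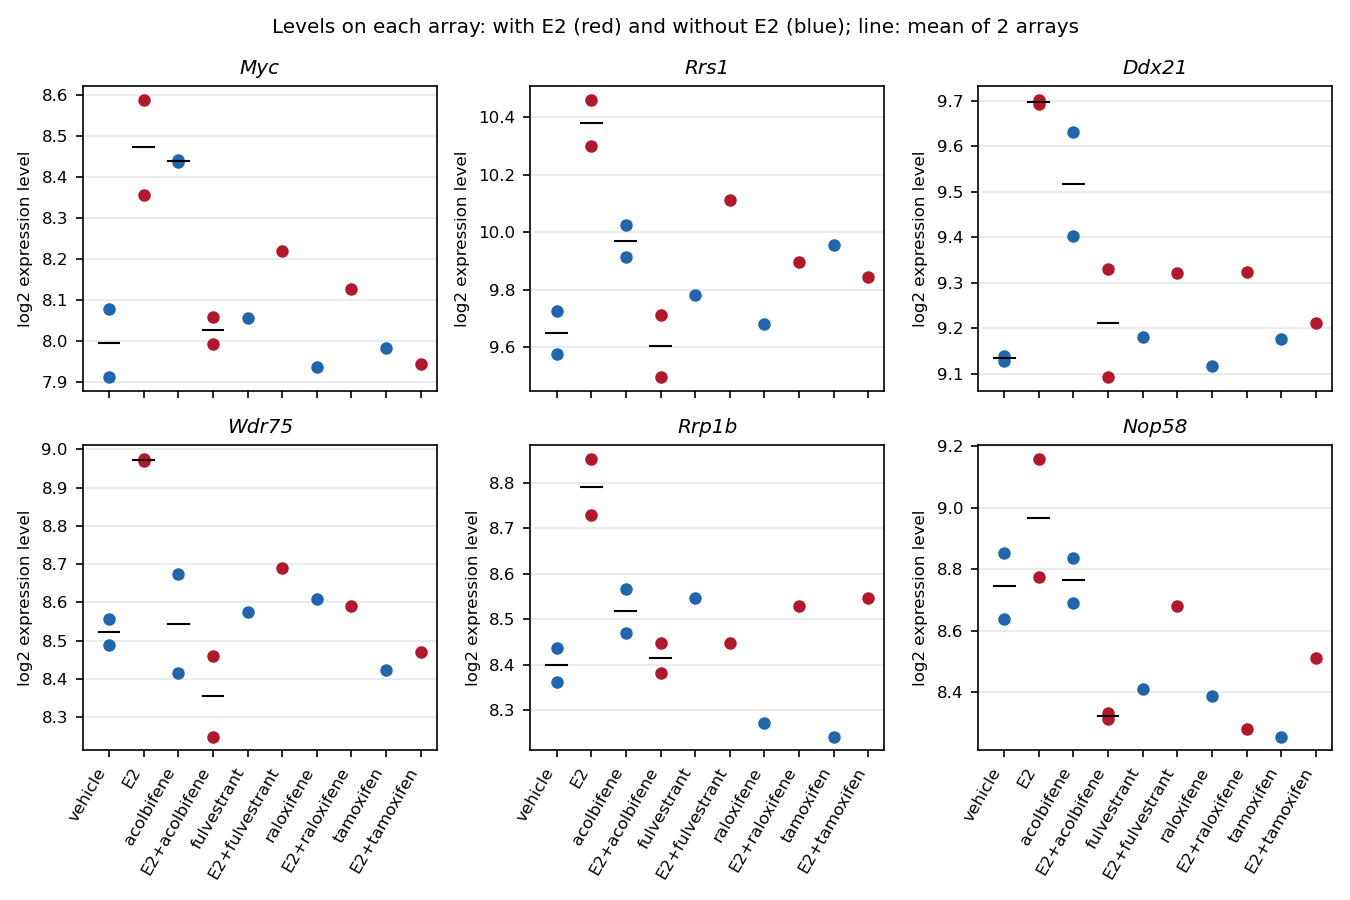
Log2 expression levels of 6 genes on every array, by treatment group, with groups that received E2 in red and the others in blue; a line marks the mean where a group has 2 arrays. Both E2 points lie above both vehicle points in every panel but that of Nop58, and both E2+acolbifene points lie below both E2 points in every panel.

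Among the remaining genes the box H/ACA proteins stood at positive differences in all 3 cases, with Gar1 at 0.34 (limma adjusted p = 0.0704), the pseudouridine synthase Dkc1 at 0.24 and Nhp2 at 0.17. In the box C/D group Nop56 differed by 0.32 and Nop58 by 0.22, whereas the methyltransferase Fbl stood at -0.01. None of these passed the test. The 14 small subunit factors had a median of 0.04, from -0.10 for Imp4 to 0.45 for Wdr75, and the 13 large subunit factors a median of 0.16, from -0.14 for Noc3l to 0.73 for Rrs1. The most negative differences, none of which passed, were those of Noc3l (-0.14), Imp4 (-0.10) and Noc4l (-0.08).

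Counted by array order alone, 20 of the 40 genes had both E2 arrays above both vehicle arrays, where 22.7% of all genes did, and 3 had both below, where 31.4% did. At an unadjusted p under 0.05 limma counted 10 of the 40 genes, against 19.7% of all genes. The count of 5 called genes rested on few arrays: it was 1 without vehicle replicate 1, 1 without vehicle replicate 2, 2 without E2 replicate 1 and 1 without E2 replicate 2. It was 2 when all 14 arrays were fitted with a term for the raw-file code. Macrophage markers stood below vehicle on both E2 arrays (14 of 16 genes each, medians -0.20 and -0.18) and basal markers above (13 of 14 each, medians 0.32 and 0.24). For E2 against vehicle 3 basal markers were called higher and 2 macrophage markers lower. Of the 17 measured luminal markers 3 were called higher and 4 lower, where 2.35% of all genes were called higher and 1.6% lower. The part of these markers in the differences was not tested.

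Acolbifene given without E2 was compared with vehicle to see whether the blocker alone moved the same genes. None of the 40 genes passed the test in limma (11 at an unadjusted p under 0.05, against 17.5% of all genes), while 0.786% of all genes were called in either direction. The median difference of the 40 genes was 0.12, against 0.03 over all genes, and 34 of the 40 were above 0. The smallest limma adjusted p among them was 0.0790, for Myc. After a further quantile normalization the share of called genes that were higher, over all genes, moved from 69.2% to 56.9%, and 0 of the 40 were called.

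Myc read 8.44 on both acolbifene arrays, above both vehicle arrays and between the levels of the 2 E2 arrays. The log2 difference from vehicle was 0.44 ± 0.10, close to the 0.48 after E2, without passing the threshold in this comparison. Both comparisons use the same vehicle arrays. Ftsj3, a methyltransferase of ribosomal RNA, read 8.27 and 8.70 against 8.05 and 8.07 in vehicle, a difference of 0.43, and Wdr12 of the Pes1-Bop1-Wdr12 complex read 7.77 and 7.87 against 7.53 and 7.31, a difference of 0.40. All of these acolbifene arrays lay above the vehicle arrays. Myc, Ftsj3 and Wdr12 had the largest differences of the listed genes here, so that order follows in part from their choice. The share of all genes placed so was not counted for this comparison.

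Ddx21 read 9.63 and 9.40 after acolbifene, between vehicle and E2, with a difference of 0.38, and Rrs1 read 10.03 and 9.91, with a difference of 0.32. Wdr43, a small subunit factor, differed by 0.31 and Heatr1, a scaffold of the same subunit, by 0.30. The 3 most negative differences were those of Nhp2 (-0.19), Nop16 (-0.11) and Ltv1 (-0.07). None of these 7 genes passed. The median 95% interval of a member's difference reached 0.21 log2 to either side. Macrophage markers stood above vehicle on both acolbifene arrays (15 of 16 each, medians 0.26 and 0.24; 3 of the 16 were called), with summed linear levels of 61400 and 59740 against 51340 and 52340 in vehicle, and their part was not tested.

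**Figure D3:**
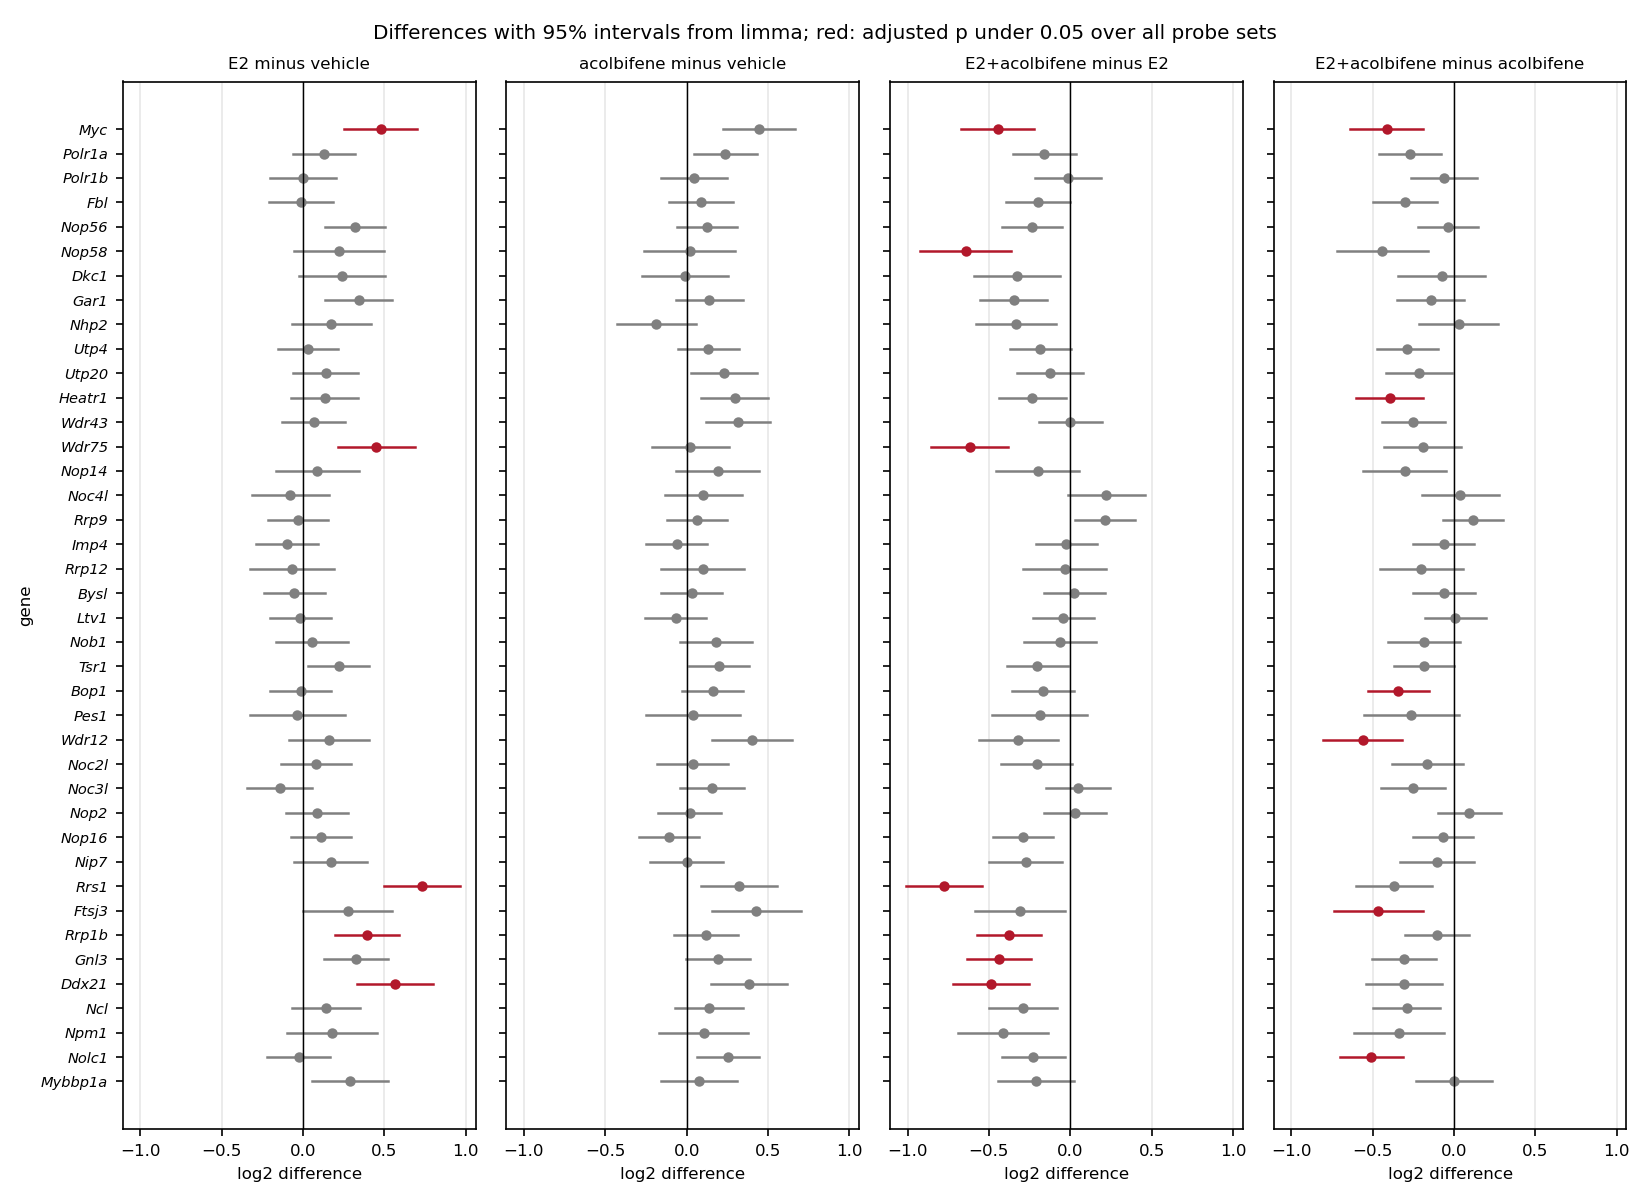
Log2 difference of each of the 40 genes in the 4 comparisons among the replicated groups, with the 95% interval from limma; red marks an adjusted p under 0.05 over all probe sets. Called genes lie to the right in the panel of E2 minus vehicle (5), nowhere in that of acolbifene minus vehicle (0), and to the left in the panels of E2+acolbifene minus E2 (7) and E2+acolbifene minus acolbifene (6).

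Adding acolbifene to E2 was set against E2 to ask whether the blocker held the estradiol response down. Levels of 7 of the 40 genes fell and 0 rose, while 2.12% of all genes were called lower and 1.62% higher. They were the 5 genes called after E2 (Rrs1, Ddx21, Myc, Wdr75 and Rrp1b) together with the box C/D protein Nop58 and the nucleolar GTPase Gnl3. Because the same E2 arrays enter both comparisons, this overlap is no independent evidence. The median difference of the 40 genes was -0.21, against -0.004 over all genes, and 34 of the 40 were below 0.

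Rrs1 read 9.71 and 9.50 on the E2+acolbifene arrays and was 1.71-fold lower than after E2 (log2 difference -0.78 ± 0.11, limma adjusted p = 0.00734). Ddx21 read 9.33 and 9.09 (-0.49 ± 0.11, limma adjusted p = 0.0364). Myc read 8.06 and 7.99 (-0.45 ± 0.10, limma adjusted p = 0.0405). For each of these 3 genes both combination arrays lay below both E2 arrays, both Myc levels lay within the vehicle range, and those of Rrs1 lay within and below it.

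Wdr75 read 8.46 and 8.25, both below the lower vehicle array, and fell by 0.62 on the log2 scale (limma adjusted p = 0.0191). Rrp1b read 8.45 and 8.38 and fell by 0.38 (limma adjusted p = 0.0468). The second probe set of Wdr75 gave 0.13 and those of Rrp1b 0.02 and 0.21, none passing, so the calls of these 2 genes hold for 1 probe set each. The second Ddx21 probe set gave -0.19 (limma adjusted p = 0.284) and that of Rrs1 -0.61 (limma adjusted p = 0.0150).

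Nop58, a core protein of the methylation guides, read 8.64 and 8.85 in vehicle, 8.77 and 9.16 after E2, and 8.31 and 8.33 in the combination. The combination lay below both other groups, and the fall from E2 was 1.56-fold (-0.64 ± 0.13, limma adjusted p = 0.0269). Gnl3 (nucleostemin) read 9.17 and 9.21 after E2 and 8.81 and 8.70 in the combination, against 8.93 and 8.79 in vehicle. It fell by 0.44 (limma adjusted p = 0.0298), with no overlap between E2 and the combination.

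By role, all 3 box C/D proteins, all 3 box H/ACA proteins and all 4 chaperones and regulators had negative differences from E2, and the 13 large subunit factors had a median of -0.29 against -0.05 for the 14 small subunit factors. Npm1, a histone and ribosome chaperone, differed by -0.41 (limma adjusted p = 0.0840), Gar1 by -0.35 and Nhp2 by -0.33, without passing. The highest positive differences, none of which passed, were those of Noc4l (0.22), the U3 snoRNP protein Rrp9 (0.21) and Noc3l (0.05). In array order 30 of the 40 genes had both combination arrays below both E2 arrays, where 31.3% of all genes did, and 2 had both above, where 29.4% did. At an unadjusted p under 0.05 limma counted 22 of the 40, against 25.4% of all genes.

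The count of 7 was 2 without E2 replicate 1, 0 without E2 replicate 2, 2 without E2+acolbifene replicate 1 and 0 without E2+acolbifene replicate 2. It was 2 with all 14 arrays and the raw-file code, and 4 after a further quantile normalization, which moved the share of called genes that were higher, over all genes, from 43.2% to 31.1%. The 18 skeletal muscle markers were all above 0 in this comparison (median 0.76, 2 called), with summed linear levels of 28570 and 26700 in the combination against 11470 and 25760 after E2. Of the 14 basal markers 12 were below 0 (median -0.16, 1 called). The 17 measured luminal markers had a median of 0.03, with 3 called higher and 1 lower. The part of these markers was not tested.

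E2+acolbifene was also set against acolbifene, to see what E2 added in the presence of the blocker. Levels of 6 of the 40 genes fell and 0 rose, while 7.82% of all genes were called lower and 3.77% higher. The 6 were Myc, the scaffold Heatr1, the large subunit factors Wdr12, Bop1 and Ftsj3, and Nolc1, a chaperone of snoRNPs. The median of the 40 differences was -0.21, against -0.04 over all genes, and 34 of the 40 were below 0.

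Nolc1 read 9.05 and 9.07 after acolbifene and 8.62 and 8.49 in the combination, and fell 1.42-fold (-0.51 ± 0.09, limma adjusted p = 0.0146). Wdr12 read 7.39 and 7.13 in the combination against 7.77 and 7.87, and fell 1.48-fold (-0.56 ± 0.11, limma adjusted p = 0.0211). The arrays of the 2 groups did not overlap for either gene. Other probe sets gave -0.38 and -0.50 for Nolc1, the latter passing with a limma adjusted p of 0.0471, and -0.29 and 0.08 for Wdr12, neither passing.

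Myc fell by 0.41 (limma adjusted p = 0.0369), from 8.44 on both acolbifene arrays to 8.06 and 7.99. Ftsj3 read 8.08 and 7.96 in the combination and fell by 0.47 (limma adjusted p = 0.0438), although its acolbifene arrays lay 0.43 apart. Heatr1 read 9.44 and 9.55 after acolbifene and 9.11 and 9.09 in the combination, and fell by 0.40 (limma adjusted p = 0.0340). Bop1 read 9.15 and 9.06 after acolbifene and 8.80 and 8.73 in the combination, and fell by 0.34 (limma adjusted p = 0.0384). No acolbifene array of these 4 genes was as low as a combination array. A second probe set of Bop1 gave 0.09 (limma adjusted p = 0.619), and other probe sets of Heatr1 gave -0.15 and -0.24 without passing. The highest positive differences, none passing, were those of Rrp9 (0.12), Nop2, a methyltransferase of ribosomal RNA (0.10), and Noc4l (0.04).

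The count of 6 depended on the scaling and on single arrays. After a further quantile normalization it was 2, and the share of called genes that were higher, over all genes, moved from 32.5% to 64.8%. It was 1 without acolbifene replicate 1, 0 without acolbifene replicate 2, 2 without E2+acolbifene replicate 1 and 0 without E2+acolbifene replicate 2. All 16 macrophage markers were below 0 in this comparison (median -0.44, 12 called) and all 15 measured adipocyte markers (median -0.21, 3 called), while all 18 muscle markers were above 0 (median 0.76, 6 called), and their part was not tested.

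Whether acolbifene acted differently with and without E2 was tested as the difference between its effects in the 2 settings. This difference was negative and passed for 8 of the 40 genes and positive for 0, while 3.54% of all genes were called lower and 1.58% higher. It was -1.10 ± 0.15 for Rrs1 (limma adjusted p = 0.00701), -0.89 ± 0.14 for Myc (limma adjusted p = 0.0126) and -0.87 ± 0.15 for Ddx21 (limma adjusted p = 0.0166). For Myc the acolbifene effect was 0.44 without E2 and -0.45 with it. For Rrs1 it was 0.32 and -0.78, and for Ddx21 0.38 and -0.49.

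The other 5 genes were Ftsj3 (-0.74), Wdr12 (-0.72), Wdr75 (-0.64), Gnl3 (-0.63) and Heatr1 (-0.53), with limma adjusted p from 0.0260 to 0.0487. The median over the 40 genes was -0.32, against -0.02 over all genes, and 35 of the 40 were below 0. At an unadjusted p under 0.05 limma counted 23 of the 40 genes, against 27.8% of all genes. The highest positive values, none passing, were those of Rrp9 (0.15), Noc4l (0.12) and Imp4 (0.04). Other probe sets did not pass and gave 0.19 for Wdr75, -0.36 for Ddx21, -0.28 on each of 2 probe sets for Heatr1, and -0.52 and 0.02 for Wdr12, while the second Rrs1 probe set passed at -0.89 (limma adjusted p = 0.0115). Without 1 array the count lay between 1 (without vehicle replicate 1 or E2+acolbifene replicate 2) and 5 (without acolbifene replicate 2 or E2+acolbifene replicate 1). It was 3 without vehicle replicate 2, 4 without E2 replicate 1, 2 without E2 replicate 2 and 3 without acolbifene replicate 1. For the same difference 17 of 18 muscle markers were above 0 (median 0.93, 1 called) and 14 of 16 macrophage markers below 0 (median -0.23, 3 called), and their part was not tested.

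The other 3 blockers had 1 array per group, so all 14 arrays were fitted with a term for the raw-file code, which assumed that a lone array varies like the replicated groups. In this fit comparisons with E2 rest on E2 array 1, the E2 array of the same code, and comparisons with vehicle pass through the difference between the E2 arrays. The sources used here give no doses for the blockers, so no blocker was tested against another, and their values are set side by side.

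Without E2, Myc read 8.06 after fulvestrant, 7.94 after raloxifene and 7.98 after tamoxifen, all within the vehicle range of 7.91 to 8.08. Rrs1 read 9.78, 9.68 and 9.95, and Ddx21 9.18, 9.12 and 9.18 in the same order. On these 3 arrays Myc lay below its level of 8.44 on the acolbifene arrays and Ddx21 below the acolbifene levels of 9.63 and 9.40. Rrs1 lay below its acolbifene levels of 10.03 and 9.91 after fulvestrant and raloxifene, and between them after tamoxifen. The acolbifene arrays carry the other raw-file code, so code and blocker cannot be told apart here.

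None of the 40 genes was called in any of the 3 comparisons with vehicle, where 0.247% of all genes were called for fulvestrant, 0.0055% for raloxifene and 0.0165% for tamoxifen. Unadjusted p under 0.05 was reached by 1, 0 and 2 of the 40 genes in limma, against 5.29%, 4.46% and 4.64% of all genes. The median differences of the 40 genes were -0.01, -0.03 and -0.08 in that order, and the median 95% interval of a gene reached 0.40 to either side. For fulvestrant the fitted differences were highest for Myc (0.29), Rrs1 (0.29) and Npm1 (0.29) and lowest for Nop14 (-0.47), Fbl (-0.37) and Nop16 (-0.27). For raloxifene they were highest for Nop56 (0.25), Dkc1 (0.19) and Rrs1 (0.19) and lowest for Nop14 (-0.32), Tsr1 (-0.27) and Pes1 (-0.26). For tamoxifen they were highest for Rrs1 (0.46), Npm1 (0.28) and Noc2l (0.27) and lowest for Nop14 (-0.53), Nolc1 (-0.33) and Fbl (-0.32). These fitted differences pass through the gap between the E2 arrays. Set directly against the vehicle mean, Myc, Rrs1, Npm1 and Nop14 lay at 0.06, 0.13, 0.05 and -0.22 on the fulvestrant array. Nop56, Dkc1, Rrs1 and Nop14 lay at 0.29, -0.08, 0.03 and -0.07 on the raloxifene array. On the tamoxifen array Rrs1, Npm1, Noc2l and Nop14 lay at 0.30, 0.04, 0.10 and -0.28. In the same fit all 18 muscle markers were above 0 for fulvestrant (median 1.99), raloxifene (median 0.92) and tamoxifen (median 0.98). Set directly against the vehicle mean, their median was 0.73 on the fulvestrant array. It was -0.25 on the raloxifene array and -0.22 on the tamoxifen array, with 3 of 18 markers above the vehicle mean on each. The part of these markers was not tested.

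With E2, Myc read 8.22 beside fulvestrant, 8.13 beside raloxifene and 7.95 beside tamoxifen. Rrs1 read 10.11, 9.90 and 9.84, and Ddx21 9.32, 9.32 and 9.21 in the same order. All 9 of these levels lay below both E2 arrays. These genes were called higher after E2, so that order follows in part from their choice, and the share of all genes placed so was not counted. For Rrs1 and Ddx21 all lay above both vehicle arrays. Without E2, the fulvestrant array (Rrs1 9.78, Ddx21 9.18) and the tamoxifen array (9.95 and 9.18) also lay above both vehicle arrays. The raloxifene array (9.68 and 9.12) did not.

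Against E2, 0 of the 40 genes were called for E2+fulvestrant, E2+raloxifene and E2+tamoxifen, where 0.011%, 0.121% and 0.0055% of all genes were called. Unadjusted p under 0.05 was reached by 4, 9 and 10 of the 40 genes in limma, against 3.62%, 7.70% and 14.1% of all genes. The median differences were -0.06, -0.18 and -0.18, with 30, 33 and 32 of the 40 genes below 0, and the median 95% interval reached 0.30 to either side. The fitted values for Myc were -0.14, -0.23 and -0.41, for Rrs1 -0.19, -0.40 and -0.46, and for Ddx21 -0.37, -0.37 and -0.48.

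Beside fulvestrant the lowest differences from E2 were those of Mybbp1a (-0.48), which encodes a nucleolar protein that binds Myb, Ddx21 (-0.37) and the nucleolin gene Ncl (-0.35), and the highest those of Nob1 (0.23), the nuclease that trims the end of 18S RNA, Imp4 (0.19) and Noc4l (0.15). Beside raloxifene the lowest were Nop14 (-0.55), Nop58 (-0.49) and Nhp2 (-0.42) and the highest Noc2l (0.21), Imp4 (0.16) and Noc3l (0.15). Beside tamoxifen the lowest were Mybbp1a (-0.58), Dkc1 (-0.51) and Wdr75 (-0.50) and the highest Noc4l (0.17), Rrp9 (0.14) and Polr1b (0.09). The smallest limma adjusted p for E2+tamoxifen was 0.186, for Nop16, a gene of the large subunit, at -0.50. E2+raloxifene had the lowest muscle marker sum of all arrays, 7084, and its part was not tested.

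E2 given beside a blocker was last set against that blocker alone, a comparison of 2 arrays that share a raw-file code. None of the 40 genes was called for fulvestrant, raloxifene or tamoxifen, where 0.599%, 0.0715% and 0.181% of all genes were. Unadjusted p under 0.05 was reached by 3, 2 and 2 of the 40 genes in limma, against 8.44%, 4.41% and 9.40% of all genes. The median differences were 0.12, 0.03 and 0.04, against -0.004, 0.03 and -0.04 over all genes. Beside fulvestrant 31 of the 40 genes were above 0, with Nop16 (0.39), Rrs1 (0.33) and Nolc1 (0.32) highest and Mybbp1a (-0.21), Npm1 (-0.14) and Heatr1 (-0.14) lowest. Beside raloxifene Noc2l (0.37), Rrp1b (0.26) and Heatr1 (0.24) were highest and Nop16 (-0.30), Wdr12 (-0.29) and Nop14 (-0.26) lowest. Beside tamoxifen Rrp1b (0.30), Nop2 (0.26) and Nop58 (0.26) were highest and Mybbp1a (-0.40), Dkc1 (-0.22) and Ncl (-0.20) lowest. Muscle markers were below 0 in 18 of 18 cases beside fulvestrant (median -0.80, 11 called) and in 17 of 18 beside raloxifene (median -1.12, 10 called). Macrophage markers were above 0 in 16 of 16 cases beside raloxifene (median 0.16, 0 called) and below 0 in 16 of 16 beside tamoxifen (median -0.20, 0 called). The part of these markers was not tested.

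**Figure D4:**
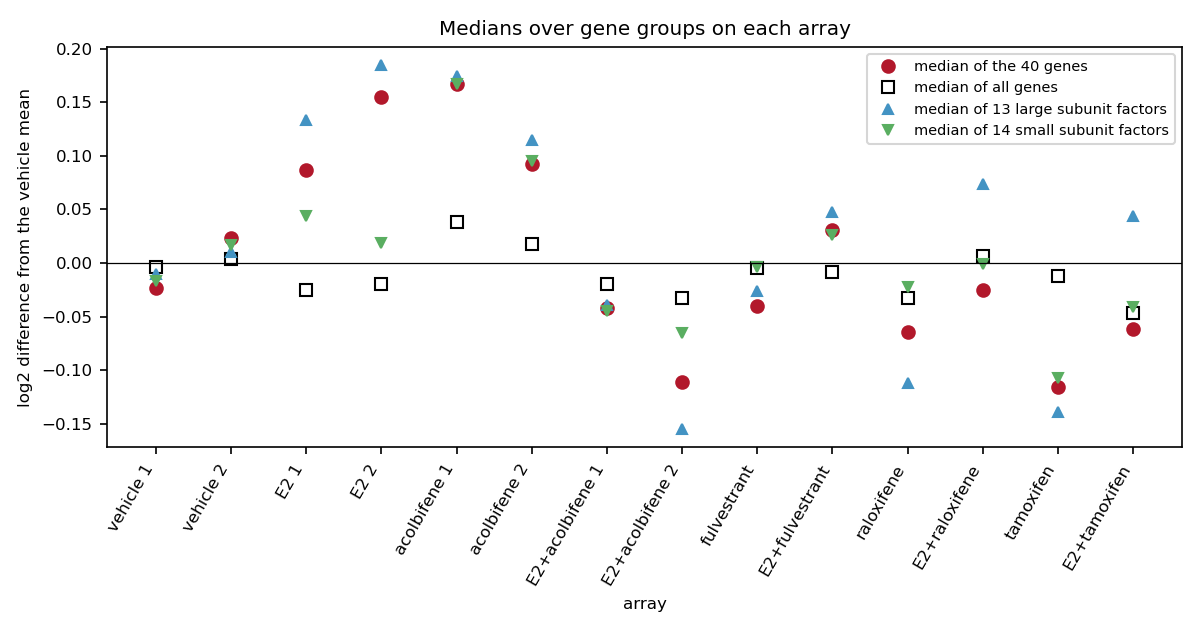
Median log2 difference from the vehicle mean on each of the 14 arrays, for the 40 genes (red circles), for all genes (open squares), and for the large and small subunit factors (triangles). The 40 genes stand at 0.087 and 0.16 on the E2 arrays, 0.17 and 0.092 on the acolbifene arrays and -0.042 and -0.11 on the E2+acolbifene arrays, while the medians of all genes stay within 0.05 of 0.

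Across all groups the median of the 40 genes was highest on acolbifene array 1 (0.17 above the vehicle mean) and lowest on the tamoxifen array (-0.12). It stood above vehicle on the E2, acolbifene and E2+fulvestrant arrays and below it on the other 7 treated arrays. For Myc, the groups ordered from the highest mean were E2, acolbifene, E2+fulvestrant, E2+raloxifene, fulvestrant and E2+acolbifene, with vehicle, tamoxifen, E2+tamoxifen and raloxifene lowest. The arrays of E2 and acolbifene interleaved, and the last 6 groups all lay within the range of the vehicle pair.

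Of the 40 genes, 12 were called in at least 1 comparison and 28 in none. The share of all genes called in at least 1 comparison was not counted. In E2+acolbifene against acolbifene, 2109 of 18193 genes were called in either direction. Myc was called 4 times, and Rrs1, Ddx21 and Wdr75 were called 3 times each. All these calls came from comparisons within the same 8 arrays, so repeated calls of a gene are not separate results. The probe sets of the called genes were 1424942_a_at for Myc, 1450986_at for Nop58, 1424522_at for Heatr1, 1451649_a_at for Wdr75, 1423264_at for Bop1, 1448646_at for Wdr12, 1456865_x_at for Rrs1, 1451026_at for Ftsj3, 1456117_at for Rrp1b, 1433656_a_at for Gnl3, 1448270_at for Ddx21 and 1428869_at for Nolc1. Of the called genes, Myc, Rrs1 and Bop1 had no promoter sequence here. None of the others held the E-box in its window: 0 of 3 for E2 against vehicle, 0 of 5 for E2+acolbifene against E2, 0 of 4 for E2+acolbifene against acolbifene, and 0 of 6 for the difference between the acolbifene effects. These small counts share genes and are not separate results. For E2 against vehicle the median difference was 0.07 in the 9 genes with the E-box and 0.14 in the 25 without it. For E2+acolbifene against E2 the medians were -0.12 and -0.27, and against acolbifene -0.18 in both sets. Whether the E-box bears on these differences was not tested.

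The levels of the 28 genes without a call are given by their range over the 14 arrays. Polr1a, the largest subunit of RNA polymerase I, lay between 7.75 and 8.21, and Polr1b, the second largest, between 7.88 and 8.08. Of the snoRNP proteins, Fbl ranged from 10.15 to 10.55, Nop56 from 8.82 to 9.17, Dkc1 from 8.74 to 9.52, Gar1 from 8.62 to 9.08 and Nhp2 from 9.35 to 9.91. The span of Dkc1, 0.78 log2, exceeded that of Myc (0.68).

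Among uncalled small subunit factors, the processome proteins ranged from 9.78 to 10.14 (Utp4), from 8.02 to 8.49 (Utp20) and from 9.46 to 9.85 (Wdr43). The U3-associated proteins ranged from 9.17 to 9.44 (Rrp9) and from 9.30 to 9.56 (Imp4). Nop14 ranged from 7.75 to 8.37 and its partner Noc4l from 8.37 to 8.80. The late factors Bysl (9.49 to 9.79), Ltv1 (9.38 to 9.60), Nob1 (8.72 to 9.13) and Tsr1 (8.84 to 9.32) and the export factor Rrp12 (6.89 to 7.38) spanned less than 0.5 log2 each. Ltv1 and Polr1b, at 0.22 and 0.20, had the narrowest spans of the 40 genes.

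In the large subunit group, Pes1, the partner of Bop1 and Wdr12, ranged from 7.49 to 8.00. The nucleolar complex proteins Noc2l (8.47 to 8.88) and Noc3l (8.50 to 8.89) had spans of 0.42 and 0.39, and Nop2 (8.87 to 9.16), Nop16 (7.76 to 8.30) and Nip7 (8.55 to 9.07) spans of 0.29, 0.55 and 0.52. Mybbp1a lay between 9.17 and 9.75.

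Other genes of the pathway were read from lists. Of 98 measured other ribosome assembly factors, 1 rose after E2, Znhit6, which helps assemble box C/D snoRNPs (8.42 and 8.47 in vehicle, 9.02 on both E2 arrays, log2 difference 0.58, limma adjusted p = 0.00926), and the median of the 98 was 0.04. None of 32 genes of the RNA polymerase I and III machinery, 46 cytoplasmic ribosomal proteins or 15 genes of nucleotide synthesis was called after E2 in limma, with medians of -0.01, -0.04 and -0.005, where 2.35% of all genes were called higher and 1.6% lower. In the Myc network of 21 genes, Mycl rose by 0.63, although it lay above vehicle on all 12 treated arrays, and the Max-like partner Mlx and the glucose-responsive factor Mlxipl fell by 0.45 and 0.48. Of 37 Myc targets outside the nucleolus, the amino acid transporter Slc7a5 rose by 0.58 and cyclin D2 (Ccnd2) fell by 0.38. Acolbifene without E2 moved 0 genes of these 6 lists past the threshold, where 0.786% of all genes were called in either direction. Of 81 listed cytoplasmic ribosomal proteins 46 were measured.

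With E2+acolbifene against E2, 4 of the 98 assembly factors fell: Znhit6 (-0.76), Brix1 (-0.44), Nol10 (-0.43) and Surf6 (-0.40), where 2.12% of all genes were called lower. The polymerase III genes Polr3a (-0.40) and Bdp1 (-0.37) and the transporter Slc7a5 (-0.49) also fell, and 0 of the 46 ribosomal proteins, the 21 Myc network genes or the 15 nucleotide genes were called in limma. The difference between the acolbifene effects was negative and called for 6 of the 98 assembly factors, with Znhit6 (-0.94) and Nol10 (-0.68) lowest, and for 2 of 32 polymerase genes, 1 of 21 Myc network genes (Mxd1, a Max partner that opposes Myc, -0.65), 1 of 37 Myc targets and 1 of 15 nucleotide genes (CTP synthase, Ctps, -0.59), where 3.54% of all genes were called lower. Against acolbifene alone the combination was lower for 6 of 98 assembly factors, 1 of 32 polymerase genes, 6 of 21 Myc network genes, 4 of 37 Myc targets and 2 of 15 nucleotide genes, where 7.82% of all genes were called lower. Among the 46 ribosomal proteins Rpl27a fell (-0.54) and Rpl37 rose (0.60).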

How the data were processed

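The authors deposited RMA log2 values for 14 arrays (RMA is named in the submitters' processing notes). RMA compresses weak signals, so small folds may be understated. The design text names U74Av2 arrays, but the 45101 probe sets are those of the Mouse Genome 430 2.0 array. After 64 controls were left out, the 45037 others comprised 34945 with 1 gene symbol, 932 with several and 9160 unnamed here. Groups came from the labelled treatment. Tests used limma (3.58.1; R 4.3.3) with eBayes and Benjamini-Hochberg adjustment over all 45037 probe sets: 5 comparisons in the 8 replicated arrays with no covariate, 9 in all 14 arrays with the raw-file code. On simulated data with 200 changed probe sets, the first fit recovered 68% of changes of 0.5 log2 and 100% of changes of 1 for E2 against vehicle, with 7.69% of its calls false. For E2+fulvestrant against fulvestrant the second recovered 19% and 99%, with 15.1% of its calls false. Both false shares exceed the threshold of 0.05. The simulated noise was independent between arrays, without a code difference, and 1685 probe sets were called for E2 in the data, so these shares may not carry over. Myc, Rrs1 and Ddx21 were given in every group; called members were named, or the 3 with the largest differences. Members and lists were chosen with earlier results of these data known. The E2 dose is left out because the labelled unit is doubtful. Alternatives were the normalization, a filter on dim probe sets, an intensity trend, other probe sets, the code, a replicate block and leaving out arrays.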

Additional observations from a re-analysis of the deposited data

Results flagged for a closer look

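In 8 genes the effect of acolbifene on the log2 level differed between mice with and without E2, by limma's test of the difference itself over all 45037 probe sets. The difference was -1.10 for Rrs1 (adjusted p = 0.00701), -0.89 for Myc (0.0126), -0.87 for Ddx21 (0.0166), -0.74 for Ftsj3 (0.0428), -0.72 for Wdr12 (0.0338), -0.64 for Wdr75 (0.0424), -0.63 for Gnl3 (0.0260) and -0.53 for Heatr1 (0.0487). All 4 arrays without E2 and all 4 with E2 enter this value, and the E2 pair differs from the other 6 in its hybridization spikes, as given above. For the same difference 17 of 18 muscle markers were above 0 (median 0.93) and 14 of 16 macrophage markers below 0 (median -0.23). The part of the spikes and of these markers was not tested.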

How the results depend on the processing

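Counts of called genes are given against those of the report. With all 14 arrays and the raw-file code, 2 genes were called for E2 against vehicle, 2 for E2+acolbifene against E2 and 4 for the difference between the acolbifene effects. With dim probe sets removed the counts were 14 for the difference between effects, 13 for E2+acolbifene against acolbifene, 8 for E2 and 1 for acolbifene. With an intensity trend in limma E2+acolbifene gave 11 against E2 and 15 against acolbifene, and the other counts were 15 for the difference between effects, 8 for E2, 3 for acolbifene and 1 for E2+tamoxifen against E2 (Mybbp1a). A further quantile normalization gave 4 for E2+acolbifene against E2, 2 against acolbifene and 4 for the difference between effects. Without the raw-file code 3 genes were called for E2+tamoxifen against E2 (Myc, Dkc1 and Nop16). The share of all genes called under each of these settings was not set beside the counts. A higher or lower count can therefore not be read as a result about the listed genes alone. The cause of these shifts in the counts was not tested. Leaving out 1 array gave 1 to 5 genes for E2, 0 to 5 for E2+acolbifene against E2, 0 to 6 against acolbifene and 1 to 5 for the difference between effects; a group left with 1 array was assumed to vary like the others. With the replicate block, the counts were 4 for E2, 6 for the difference between effects, 0 for acolbifene, and 5 each for E2+acolbifene against E2 and against acolbifene. Deviations of same-numbered arrays correlated at -0.123 to 0.117, so the numbers were not taken as pairs. A crossed pairing for E2+acolbifene against E2, chosen after seeing the data, called 6.

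Directions turned at the probe set of middle brightness of a gene, which is the dimmer one where a gene has 2, as Wdr75 and Bop1 do. There Wdr75 read -0.0682 for E2, 0.1275 for E2+acolbifene against E2 and 0.192 for the difference between effects. Rrp1b read 0.0242 for E2+acolbifene against E2, and Bop1 0.0931 for E2+acolbifene against acolbifene. Over all alternatives the called genes kept direction and call in 232 cases, kept direction alone in 160 and turned in 5. Rrs1 kept its call in 15 of 15 alternatives for E2 and Myc in 12 of 15. Myc lost that call without vehicle replicate 1, without vehicle replicate 2 and without E2 replicate 2. Not every alternative was a fresh test. Leaving out an array outside a comparison changes the spread but not the difference. Myc has 1 probe set, so its middle probe set repeats the main result. For E2+acolbifene against E2, Myc kept it in 7 of 16 and Rrp1b in 4 of 16. For the difference between effects, Heatr1 kept it in 3 of 15 and Wdr75 in 4 of 15. A replicate block for the 6 comparisons of a lone array with vehicle or E2 was not run. Nor were comparisons of lone arrays with vehicle or E2 without E2 replicate 1, or with vehicle without E2 replicate 2, since the code is then not estimable. With 1 or 2 arrays a group, the number of arrays limits the precision.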
